A study of Mus musculus with 16 samples.

Results

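The experiment described here is the response of wild-type mouse embryonic stem cells (ESCs) to inhibition of the kinase mTOR, read across all expressed genes and transcripts. Its members are 8 of the 16 libraries of the series, chosen by their titles. They are 4 of wild-type ESCs in normal ESC culture and 4 of wild-type ESCs in mTOR inhibitor (mTORi) culture, for which the labels give day 2 and which they call paused. The other 8 libraries are of Dgcr8 KO ESCs in the same pair of cultures. They lack the RNA-binding partner of Drosha in microRNA processing and serve as a comparison. They also entered the filter on low counts, the scaling and the estimate of the spread. Dgcr8 mRNA was not lower in the libraries labelled KO, and since the labels do not give the deleted part, its level checks nothing about the genotype. Each sample was 800000 cells, from which 1 µg of column-purified RNA went into poly(A) selection. The labels name neither the inhibitor, its dose nor the parental ESC line, nor whether the replicates came from separate cultures. P-values therefore measure the spread among these samples alone, and it may be technical.

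mTOR is the catalytic subunit of complexes that couple growth to amino acids, growth factors and energy. When active it promotes the translation of ribosomal and other growth-related mRNAs, drives nucleotide and lipid synthesis, and holds back autophagy. Partial inhibition slows ESCs and blastocysts and places them in a reversible dormancy-like state that resembles embryonic diapause, the natural arrest of the mouse blastocyst.

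Summed estimated counts were 89035518 to 109775961 in normal and 91793641 to 98404003 in paused wild-type libraries. Markers of ESCs were present in all libraries: their summed abundance was 6802 to 7838 TPM (abundance corrected for transcript length and scaled to the library) in normal and 9209 to 9579 TPM in paused culture, and none of the 10 was at 0. Markers of fibroblast feeders summed to 13.9 to 16.7 and 15.6 to 16.4 TPM, with 6 of 9 under 1 TPM, trophoblast markers to 11.8 to 12.7 and 11.6 to 12.8 TPM, and mesoderm markers to 2.20 to 3.34 and 6.67 to 8.29 TPM. Other marker sums were higher: primed epiblast 190 to 223 and 210 to 287 TPM, and primitive endoderm 151 to 204 and 154 to 192 TPM. Sums of 2-cell-like markers were 113 to 138 and 74.6 to 152 TPM, and of neuroectoderm markers 88.6 to 114 and 101 to 116 TPM. The most abundant members of these lists were Dnmt3b, Sparc, Zscan4f and Tubb3. Replicates 1 and 2 stood apart from replicates 3 and 4 within each culture, so results were also computed in each of these pairs alone. In bulk RNA, fewer cells of a type and less RNA per cell cannot be told apart, and counts scaled to library size show relative levels, not amounts per cell. Library sizes were multiplied by scaling factors (TMM) of 0.93 to 0.97 in normal and 1.04 to 1.06 in paused wild-type libraries. Ratios of paused to normal scaled counts are therefore lower than ratios of plain shares of the counts.

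The first question was how broad the response was. The quasi-likelihood test of edgeR called 11505 of 18944 genes at a Benjamini-Hochberg adjusted p under 0.05, which is 60.7% of the genes tested. In paused cells 6301 genes were higher (33.3%) and 5204 lower (27.5%). The 4 paused libraries lay wholly above or below the 4 normal ones for 10232 genes (54% of those tested), 5657 of them above (29.9%) and 4575 below (24.2%). Filtered, scaled and fitted without the KO libraries, the 8 wild-type libraries gave 5391 higher and 5394 lower genes of 18407 tested, without the excess of higher genes. Within replicates 1 and 2 alone 11969 genes were called, and within replicates 3 and 4 alone 11832.

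Changes spanned a wide range of sizes. The median absolute log2 fold change over all genes was 0.36 at a median standard error (SE) of 0.10, and 5491 called genes changed by less than 0.5 on the log2 scale. A change of at least 0.5 was met by 3521 higher and 2493 lower genes, of at least 1 by 1163 and 790, of at least 2 by 114 and 106, and of at least 3 by 18 and 18. At the median SE of 0.10 many 95% intervals are too wide to lie within 0.2 of 0, even without a change. A count of genes whose interval does so is therefore not a count of unchanged genes. The 95% interval of the log2 fold change lay within 0.2 of 0 for 1522 genes, 8.03% of those tested. Among the abundant ones were Hsp90ab1, the constitutive cytosolic HSP90, at 6004, 6098, 6216 and 6442 CPM (counts scaled to library size) in normal and 6531, 6294, 6461 and 6351 CPM in paused libraries, and the tubulin Tubb5, at 1951 to 2047 and 1856 to 1940 CPM. Their log2 fold changes were 0.05 ± 0.03 and −0.07 ± 0.04 (SE), and Tubb5 was called lower under 4 of the other settings tried.

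**Figure D1:**
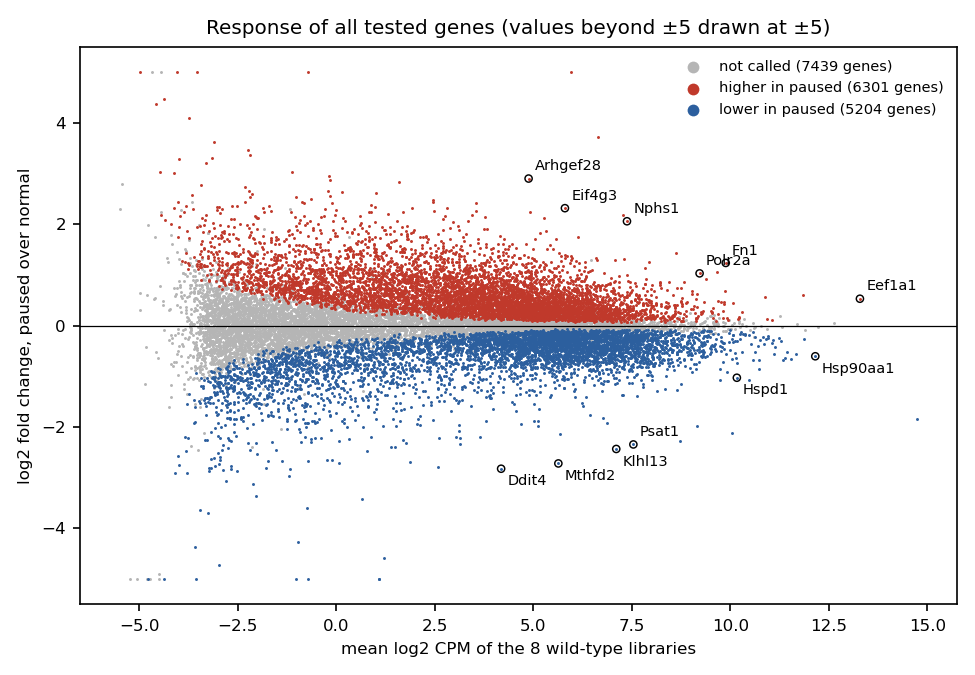
Log2 fold change of paused over normal culture (vertical axis) against mean log2 CPM of the 8 wild-type libraries (horizontal axis), 1 point per gene for 18944 genes, red for 6301 higher and blue for 5204 lower genes. Circled genes are described in the text, and the most abundant genes on the right lie more often below than above 0.

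The genes with the largest rises encode proteins of the cell surface, of vesicles and of the cytoskeleton as well as a translation factor. Arhgef28, a guanine nucleotide exchange factor (ENSMUSG00000021662.10, GRCm38 chromosome 13, 97899469 to 98206439), had 8.36, 8.88, 13.2 and 13.1 CPM in normal and 76.9, 76.8, 87.9 and 83.4 CPM in paused libraries. Replicates 1 and 2 were the lower pair in both cultures, and the groups were far apart. The log2 fold change was 2.90 ± 0.15 (SE; edgeR adjusted p = 3.4e-10). Ly6g6e, a member of the LY6 family of surface proteins, had 3.89, 3.60, 6.22 and 6.89 against 28.5, 27.3, 27.5 and 26.4 CPM, a rise of 2.42 ± 0.15. Cpe, a carboxypeptidase that trims peptide hormones, went from 4.78, 4.98, 5.62 and 6.05 to 30.2, 28.8, 21.6 and 22.2 CPM (2.26 ± 0.10). The actin-binding Ablim1 (2.06 ± 0.07), the spectrin Sptb (1.91 ± 0.10), the Golgi-trafficking GTPase Rab6b (1.96 ± 0.20), the endoplasmic reticulum protein Derl3 (2.15 ± 0.09) and the atypical MAP kinase Mapk4 (2.19 ± 0.10) rose by similar sizes.

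A pair of neighbouring genes was among these 15 largest rises. Nphs1 (ENSMUSG00000006649.17, chromosome 7, 30458315 to 30487223, plus strand) encodes nephrin, and Kirrel2 (ENSMUSG00000036915.17, chromosome 7, 30447534 to 30457690, minus strand) encodes a nephrin-like adhesion protein, so that both are read outward from the short stretch between them. Nphs1 had 75.6, 79.3, 87.6 and 83.2 CPM in normal and 351, 328, 349 and 329 CPM in paused libraries (2.06 ± 0.06). Kirrel2 had 20.5, 20.4, 22.6 and 21.1 against 78.1, 74.4, 79.8 and 74.4 CPM (1.86 ± 0.05). Neither showed overlap between the groups, which the naming rule required, and both had narrow spread within each culture.

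Genes with the largest falls include enzymes of one-carbon and serine metabolism, growth regulators and stress-induced factors. Mthfd2, a mitochondrial folate enzyme, had 135, 139, 122 and 115 CPM in normal and 19.9, 19.0, 19.5 and 19.0 CPM in paused libraries. Klhl13, a substrate adaptor of a ubiquitin ligase on the X chromosome (ENSMUSG00000036782.13, 23219271 to 23365082), had 281, 252, 389 and 388 against 47.7, 45.5, 74.6 and 74.1 CPM, a fall with a log2 fold change of −2.44 ± 0.18 (SE; edgeR adjusted p = 3.7e-08). Replicates 3 and 4 were the higher pair in both cultures, and no normal library overlapped a paused one, as the naming rule required. Phlda2, an imprinted gene that restrains placental growth, went from 77.1, 80.8, 61.5 and 60.8 to 17.1, 15.3, 19.7 and 18.4 CPM (−1.99 ± 0.14), and Calcoco2, an autophagy receptor, from 78.8, 78.3, 137 and 144 to 21.7, 22.2, 25.7 and 30.1 CPM (−2.14 ± 0.19).

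The glycosyltransferase Galnt6 (−2.21 ± 0.19), the signalling protein Rtkn (−2.08 ± 0.13), the growth cone protein Gap43 (−1.96 ± 0.26) and Zfp365 (−1.95 ± 0.23) fell as well. Zrsr1, with 993, 3491, 2327 and 2484 against 547, 444, 670 and 474 CPM, and Grip2, with 545, 1661, 1282 and 1277 against 320, 238, 368 and 274 CPM, were the noisiest of the named genes. Their values went up and down nearly together across libraries, though the genes lie on chromosomes 11 and 6. Whether these are separate changes was not tested. Their adjusted p were 0.0078 and 0.0077, and both missed the threshold in replicates 1 and 2 alone. Ldha and Tpi1, glycolytic enzymes with fold changes of −2.28 ± 0.14 and −1.91 ± 0.15, have processed pseudogene copies. Reads shared with those copies could make these sizes uncertain, which was not tested.

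**Figure D2:**
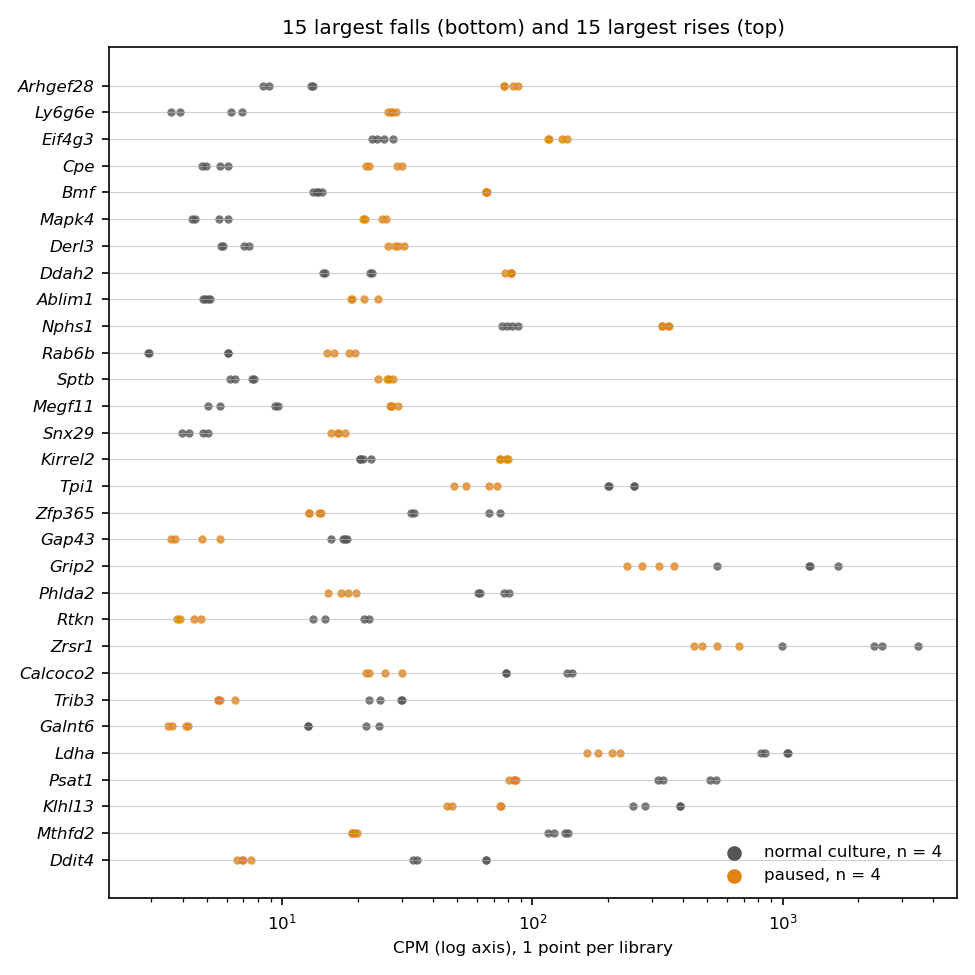
CPM on a log axis of the 15 genes with the largest falls (lower rows) and the 15 with the largest rises (upper rows) that met the naming rule, 1 point per library, grey for 4 normal and orange for 4 paused libraries. The groups do not overlap in any row, which the naming rule required, and Zrsr1 and Grip2 have the widest spread.

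A second view takes the whole pool of mRNA, in which a few abundant genes weigh most. Between the group means 12.9% of all counts moved from one gene to another. Pairs of 1 normal and 1 paused library differed by 12.05% to 14.6%, pairs of normal libraries by 3.47% to 7.16% and pairs of paused libraries by 1.45% to 3.31%. Without pseudogenes the range between cultures was 11.5% to 12.5% and that within a culture 1.38% to 5.40%. Fewer genes made up 50% of the loss than of the gain, but fewer genes lost than gained. Outside pseudogenes, 262 of the 6503 genes with a loss made up 50% of it, and 496 of the 10458 genes with a gain made up 50% of the gain.

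Among the losers were chaperones, nucleolar proteins and a poly(A)-binding protein. Hsp90aa1, the stress-inducible cytosolic HSP90, had 5998, 5944, 5276 and 5326 CPM in normal and 3716, 3695, 3686 and 3706 CPM in paused libraries (log2 fold change −0.61 ± 0.04). Hspd1, the mitochondrial chaperonin HSP60, went from 1689, 1713, 1592 and 1572 to 802, 791, 801 and 820 CPM (−1.03 ± 0.04). Pabpc1, which coats poly(A) tails (−0.68 ± 0.04), the nucleolar proteins Ncl (−0.65 ± 0.04) and Npm1 (−0.52 ± 0.03), the histone chaperones Set (−0.68 ± 0.04) and Ptma (−0.57 ± 0.05) and the pyruvate kinase Pkm (−0.67 ± 0.07) completed the large losses, with no overlap of the groups. Several of these have many processed pseudogenes, whose sharing of reads was not tested.

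Gains were led by the elongation factors of translation and by extracellular matrix genes. Eef1a1, which delivers aminoacyl-tRNA to the ribosome, had 8428, 8317, 8095 and 8495 CPM in normal and 12160, 11620, 12220 and 12114 CPM in paused libraries (0.53 ± 0.03). Eef2, which moves the ribosome along the mRNA, had 2829, 2848, 3029 and 3171 against 4384, 4213, 4820 and 4679 CPM (0.61 ± 0.05). Fibronectin (Fn1) went from 652, 580, 611 and 620 to 1427, 1450, 1507 and 1418 CPM (1.24 ± 0.05). The basement membrane genes Agrn (1.43 ± 0.06) and Col18a1 (0.92 ± 0.06), the actin crosslinker Flna (1.05 ± 0.05) and the ubiquitin ligases Nedd4 (0.56 ± 0.03) and Mid1 (0.68 ± 0.07) also gained. The direction thus differed within the translation machinery, where initiation factors mostly fell, as given further on.

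Counts were spread over more genes in paused cells. The number of genes that together hold 50% of the counts was 741, 675, 666 and 729 in normal and 863, 863, 847 and 855 in paused libraries. The groups did not overlap (exact permutation test, two-sided, p = 0.0286, the smallest that 4 against 4 libraries allow, and 0.0571 after Benjamini-Hochberg adjustment over 18 library measures, so it did not pass 0.05). Outside pseudogenes the means were 798 and 891. The share of the 1000 most abundant genes was 56.7% ± 0.849 in normal and 52.96% ± 0.173 in paused libraries (SD, n = 4), with the same exact p. The share of the 10 most abundant genes, 9.25% ± 1.72 and 6.26% ± 0.189, is set by the processed pseudogene Gm19220, at 32538, 59944, 78416 and 43299 against 13889, 16946, 14635 and 13965 CPM: outside pseudogenes it was 4.90% and 5.21%, the opposite order.

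The direction of change went with the abundance and length of a gene. Among protein-coding genes, 35.4% were called higher and 28.7% lower. In the most abundant decile of mean log2 CPM 23.5% were higher and 56.3% lower (median log2 fold change −0.17), while in decile 5 50.9% were higher and 20.1% lower (median 0.22). In the decile of shortest transcripts 18.6% were higher and 42.5% lower (median −0.19), and in that of the longest 42.1% and 16.9% (median 0.15, with 0.07 in replicates 1 and 2 and 0.19 in replicates 3 and 4). Genes with the longest genomic span (decile 10) were higher in 49.6% and lower in 12.9%, and those with most exons in 49.6% and 21.7%.

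Abundance and length went with direction side by side. In the most abundant tercile, short genes were higher in 18.2% and lower in 64.3%, and long genes in 43.6% and 30.7%. In the middle tercile, short genes were higher in 35.7% and lower in 34.9%, and long genes in 57.6% and 14.5%. Averaged over molecules, mRNA length was 1794 ± 17.3 bases in normal and 1859 ± 21.3 bases in paused libraries, coding length 1065 ± 10.7 and 1116 ± 10.7 bases, and exon number 8.20 ± 0.0472 and 8.41 ± 0.0582 (SD, n = 4; exact permutation p = 0.0286 for each, 0.0571 adjusted). The same medians were −0.23 for the most abundant decile, −0.19 for the shortest and 0.19 for the longest transcripts in the KO libraries, which are separate samples. Whether RNA integrity or read coverage differed between cultures was not tested.

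**Figure D3:**
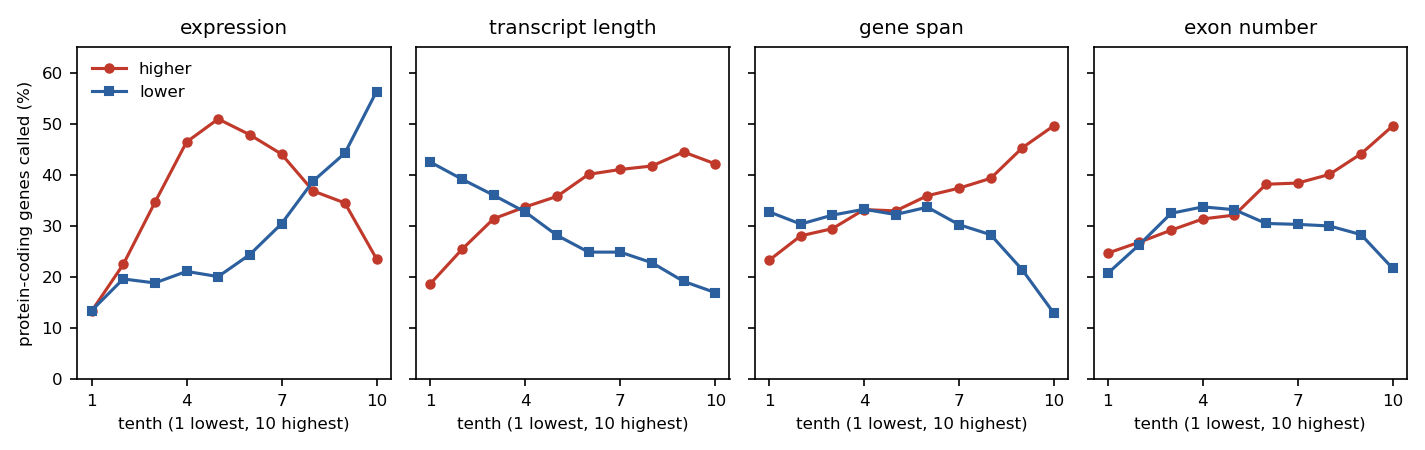
Percent of protein-coding genes called higher (red circles) and lower (blue squares) in paused culture by decile of mean expression, transcript length, gene span and exon number (horizontal axes, 1 lowest to 10 highest). Lower calls reach 56.3% in the most abundant decile, and higher calls 49.6% in the deciles of longest gene span and most exons.

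Gene groups were read from 53 lists of complexes and families and 8 marker lists. Over all genes tested 33.3% were higher and 27.5% lower, and short genes of the most abundant tercile were lower in 64.3%. Whether a list differed from other genes of like abundance and length was not tested. The mitochondrial translation and import machinery was lower nearly throughout. Of 78 mitochondrial ribosomal proteins 73 fell and 2 rose, with a median log2 fold change of −0.49, where the median of all genes was 0.04. Mrpl36 had 52.2, 52.5, 55.2 and 58.7 CPM in normal and 26.2, 22.7, 22.8 and 23.5 CPM in paused libraries (−1.20 ± 0.06), and Mrpl45 and Mrpl18 both fell by about as much (−1.04 each). Of 23 genes of mitochondrial protein import 19 fell and 1 rose (median −0.53), among them the outer-membrane translocase subunit Tomm5 (−1.01) and the intermembrane chaperones Timm8a1 (−0.79) and Timm13 (−0.76). In the tricarboxylic acid cycle 16 of 21 genes fell and 2 rose (median −0.35). Sdhd, a subunit of succinate dehydrogenase, fell by 0.72 and Mdh2 by 0.66, whereas the NADP-dependent Idh2 went from 43.2, 41.7, 53.9 and 56.8 to 90.0, 86.3, 84.7 and 85.5 CPM (0.83 ± 0.09).

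Protein folding and degradation complexes were lower too. All 7 tested subunits of the cytosolic chaperonin CCT fell (median −0.53), with Cct8 at 779, 776, 753 and 757 against 501, 489, 501 and 496 CPM. Of 47 proteasome subunits and assembly factors 40 fell and 4 rose (median −0.48). The core subunits Psma5 and Psma2 both fell by 0.82, and the immunoproteasome subunit Psmb10 by 1.14. The 4 that rose, named after their values were seen, were the activator subunits Psme1 (0.22) and Psme2 (0.36), the inhibitor Psmf1 (0.41) and the testis-type subunit Psma8 (0.38).

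The machinery of transcription showed a split by subunit. Of 13 subunits of RNA polymerase II 12 fell, with a median of −0.48, among them Polr2i (−0.81 ± 0.05) and Polr2l (−0.79 ± 0.04). The exception was Polr2a, the largest, catalytic subunit (ENSMUSG00000005198.15, chromosome 11, 69733997 to 69758637), with 414, 381, 431 and 445 CPM in normal and 867, 903, 802 and 839 CPM in paused libraries (1.03 ± 0.05; edgeR adjusted p = 2e-12). Every paused library was above every normal one. Of 15 subunits of RNA polymerases I and III 10 fell and 2 rose. The paralogs Polr3g and Polr3gl, alternative subunits of RNA polymerase III, moved in opposite directions. Polr3g went from 109, 108, 109 and 113 to 63.8, 62.9, 66.5 and 66.5 CPM (−0.76 ± 0.03), and Polr3gl from 4.82, 5.64, 5.93 and 5.46 to 16.9, 15.1, 15.5 and 14.1 CPM (1.49 ± 0.08). Polr3g is the form known to be abundant in pluripotent cells, and Polr3gl that of differentiated tissues.

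Several complexes of RNA processing and transport were lower as well. In the spliceosome core 41 of 52 genes fell and 4 rose (median −0.36), with Snrpa1 of the U2 particle at 160, 161, 149 and 150 against 71.9, 67.2, 73.1 and 72.4 CPM (−1.13 ± 0.05). Prpf40b, a U1-associated factor, rose by 1.06 ± 0.07. The RNA exosome fell in 9 of 10 members (Exosc2, −1.03), karyopherins, which carry cargo through nuclear pores, in 22 of 23 with 0 higher (Kpna3, −0.98), and nucleoporins in 17 of 20. DEAD and DEAH box helicases fell in 35 of 53 and rose in 13. Other lists did not share this: genes of the CCR4-NOT deadenylase rose in 4 and fell in 4 of 11 (median 0.02, and −0.12 in replicates 1 and 2), and SR proteins rose in 2 and fell in 5 of 11 (median −0.09, and −0.23 in replicates 1 and 2). Purine and pyrimidine synthesis genes fell in 20 of 22 (median −0.46), with Rrm2, the regulatory subunit of ribonucleotide reductase, at 331, 325, 331 and 334 against 168, 166, 167 and 165 CPM (−0.99 ± 0.03).

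Of the translation machinery, initiation factors fell in 37 of 51 and rose in 5 (median −0.31), among them the eIF3 subunit gene Eif3j2 (−0.88) and the eIF2 subunit Eif2s3x (−0.87). Eif4g3, a paralog of the scaffold that joins cap-binding and ribosome-recruiting factors, had 27.7, 25.5, 23.9 and 22.9 CPM in normal and 115, 116, 137 and 131 CPM in paused libraries (2.32 ± 0.07), the largest rise of that list. Aminoacyl-tRNA synthetases fell in 24 of 37 and rose in 7 (median −0.39). The cytosolic enzymes Nars (−1.29 ± 0.09), Cars (−1.29 ± 0.12) and Sars (−1.21 ± 0.10) fell most, and all but Qars of those that rose, singled out after their values were seen, were mitochondrial forms: Nars2 (0.13), Hars2 (0.16), Iars2 (0.21), Vars2 (0.23), Rars2 (0.25) and Pars2 (0.54). Cytosolic ribosomal proteins were mixed, with 37 of 83 lower and 12 higher and a median of −0.08 (−0.17 in replicates 1 and 2). As a share of all counts they held 5.84% ± 0.125 in normal and 6.25% ± 0.244 in paused libraries (SD, n = 4, exact permutation p = 0.0571), and as a share of TPM 15.7% and 18.3% (exact p = 0.0286). The share of pseudogenes went from 7.79% to 4.54% of counts. Outside pseudogenes the ribosomal protein share was 6.33% and 6.55% of counts (exact permutation p = 0.171). Unlike the median of −0.08, these shares carry no TMM factor, so the measures are not directly comparable. The ribosomal paralogs Rps27l (−1.09) and Rpl10l (−1.04) fell most. Reads shared with related genes could make both sizes uncertain. Such sharing was not tested, either for these or for the single-exon Eif3j2.

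**Figure D4:**
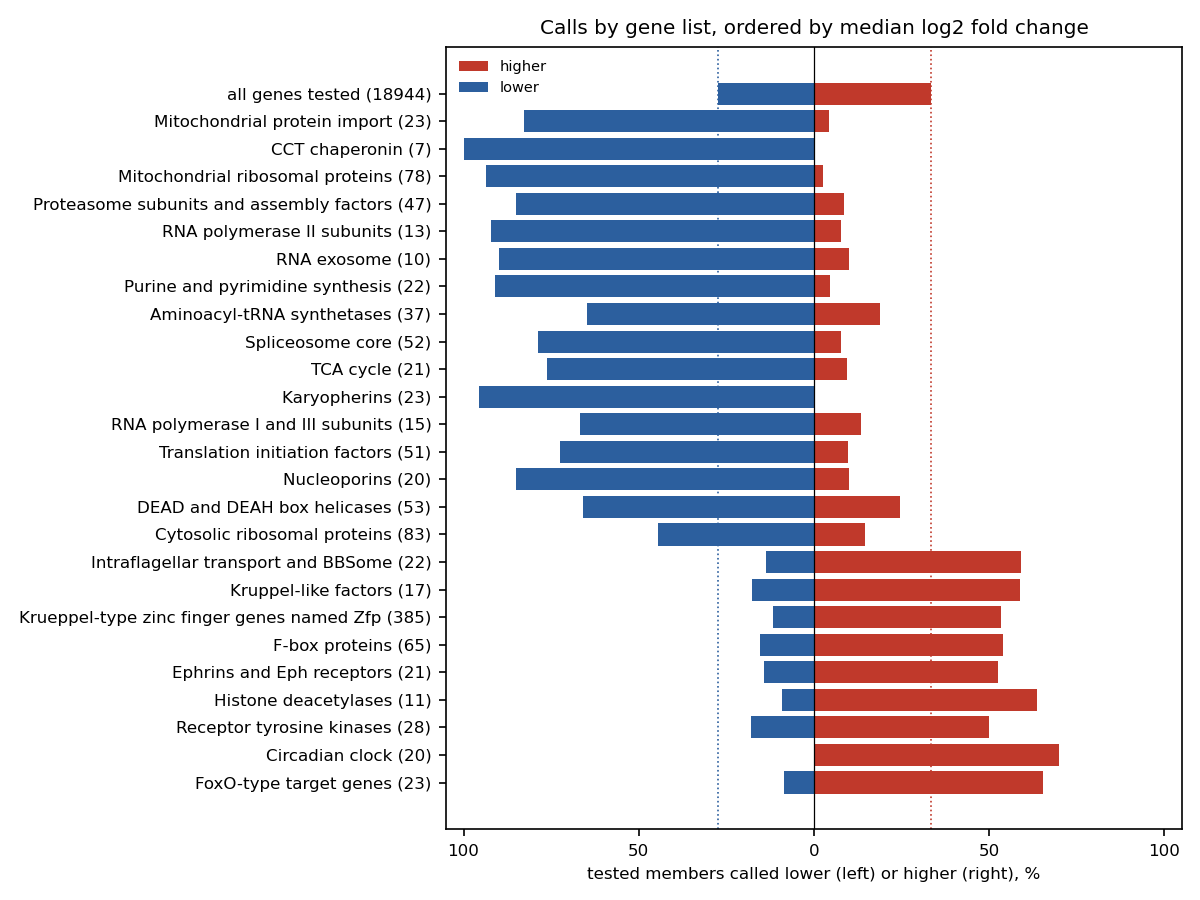
Percent of tested members called lower (blue, left) and higher (red, right) in 25 of the 61 lists, chosen for display with results known, with the number tested in brackets. Dotted lines mark the shares over all 18944 genes, 27.5% lower and 33.3% higher, which the top bar repeats.

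Other lists had more higher than lower members. Of 385 zinc finger genes named Zfp 205 rose and 45 fell (median 0.22, and 0.14 in replicates 1 and 2), with Zfp618 rising by 1.84. F-box proteins, the substrate adaptors of SCF ubiquitin ligases, rose in 35 of 65 and fell in 10 (median 0.24, but 0.11 both in the fit of the 8 wild-type libraries and in replicates 1 and 2), led by Fbxo32 (1.97 ± 0.13) and Fbxo44 (1.81 ± 0.08). Circadian clock genes rose in 14 of 20 with 0 lower (median 0.40). Per3 went from 4.29, 4.01, 3.95 and 4.00 to 11.02, 11.2, 11.3 and 11.1 CPM (1.46 ± 0.07), the repressor Nr1d2 from 33.7, 32.9, 34.1 and 32.9 to 79.7, 81.0, 81.8 and 82.0 CPM (1.28 ± 0.04), and the clock kinase Csnk1e rose by 0.98 ± 0.06. The core activator Arntl, at −0.08, was not called.

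Genes known as targets of FoxO factors, which Akt keeps out of the nucleus, rose in 15 of 23 and fell in 2 (median 0.51). Irs2, an adaptor of the insulin receptor, had 12.3, 11.2, 12.3 and 12.4 CPM in normal and 31.7, 33.3, 32.8 and 32.2 CPM in paused libraries (1.44 ± 0.06), and the cyclin-like Ccng2 rose by 1.57 ± 0.18. Receptor tyrosine kinases rose in 14 of 28 and fell in 5 (median 0.34). Kdr, a VEGF receptor and also one of the mesoderm markers above, had 2.12, 2.04, 4.503 and 4.497 against 18.5, 18.8, 13.7 and 14.3 CPM (2.32 ± 0.28), and Ntrk2 rose by 1.52, while Fgfr2 fell by 1.53. Within the mTOR pathway itself 22 of 51 components rose and 16 fell (median 0.08, and 0.03 in the 8 wild-type libraries). Its inhibitors Ddit4, at 64.98, 65.2, 33.4 and 34.6 against 6.60, 6.95, 6.90 and 7.49 CPM, and Sesn2, at 328, 314, 188 and 193 against 96.8, 98.5, 97.6 and 101 CPM, were among those that fell (−2.83 ± 0.25 and −1.38 ± 0.16).

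Further families with more higher than lower members were ephrins and their receptors (11 of 21 against 3), histone deacetylases (7 of 11 against 1), with Hdac11 at 1.23 and Hdac5 at 0.94, and Kruppel-like factors (10 of 17 against 3), with Klf15 at 1.71 and Klf11 at 1.18. Genes of intraflagellar transport and the BBSome, which build and serve cilia, rose in 13 of 22 and fell in 3, with Ift172 at 37.8, 36.7, 35.1 and 34.9 against 69.3, 69.6, 67.2 and 65.9 CPM (0.91 ± 0.04). Solute carriers rose in 123 of 315 and fell in 73, shares of the same order as over all genes. The proline transporter Slc6a7 rose by 2.27 ± 0.18 and the glycine transporter Slc6a9 fell by 2.39 ± 0.18, the latter by 1.51 on length-scaled TPM. For fatty acid oxidation, 7 of 21 genes rose and 6 fell, close to the shares over all genes. Among them Cpt1a, which admits fatty acids to mitochondria, rose from 28.7, 27.0, 32.8 and 34.7 to 87.4, 86.2, 79.3 and 77.5 CPM (1.42 ± 0.08).

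Pluripotency factors were present in both cultures. Of 10 ESC markers 6 rose and 1 fell (median 0.24). Sox2 went from 467, 485, 481 and 468 to 590, 603, 651 and 643 CPM (0.39 ± 0.04), Esrrb rose by 0.46 ± 0.04 and Tfcp2l1 by 0.34 ± 0.06, and Pou5f1 fell by 0.13 ± 0.04. On the TPM scale, to which the TMM factors are not applied, Pou5f1 had the opposite order, at 1608 to 1784 TPM in normal and 1841 to 1967 TPM in paused libraries. Nanog had 401, 391, 444 and 450 CPM in normal and 440, 429, 381 and 377 CPM in paused libraries and was not called: it was higher in paused culture within replicates 1 and 2 (0.10) and lower within replicates 3 and 4 (−0.27).

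Promoters were searched for short motifs, since members of several lists moved together. RefSeq promoters (GRCm38.p6, 250 bases before to 50 after the start) were matched for 12962 of 16928 protein-coding genes, and 9686 began within 100 bases of the most abundant transcript. The core of the C/EBP-ATF response element, TGATGNAA on either strand, the site type of ATF4, was present in 1.91% of all promoters, in 1.61% of those of the 558 genes higher by at least 1 and in 5.77% (21) of those of the 364 genes lower by at least 1. Of these lower genes 91 had a mean log2 CPM of 3 or more, and 5 of the 91 hold it. The sites of 4 of them are shown 5′ to 3′ on the strand of the gene, 30 bases each, with the motif or its reverse complement in capitals, because they are among the abundant lower genes with this element.
Ptgr1: ttctttgcttcTGATGCAAacataaattgt
Ifitm3: acccagagcagTTTCATCAagccaaaattc
Herpud1: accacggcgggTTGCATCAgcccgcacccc
Gars: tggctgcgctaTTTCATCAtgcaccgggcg

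These lie at chr4:58987255-58987284 (Ptgr1, minus strand), chr7:141010745-141010774 (Ifitm3, minus), chr8:94386306-94386335 (Herpud1, plus) and chr6:55037960-55037989 (Gars, plus). Gars is the glycyl-tRNA synthetase, Herpud1 serves endoplasmic reticulum protein degradation, Ptgr1 is a prostaglandin reductase and Ifitm3 an interferon-induced membrane protein. Gars had 546, 521, 414 and 405 CPM in normal and 243, 234, 231 and 235 CPM in paused libraries (−1.001 ± 0.09), and Herpud1 19.7, 20.9, 16.7 and 16.1 against 8.61, 8.12, 7.29 and 7.78 CPM (−1.21 ± 0.09). For both genes replicates 1 and 2 were the higher pair in normal culture, and the paused libraries were closer together. Ptgr1 fell by 1.58 ± 0.11 and Ifitm3 by 1.24 ± 0.12.

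Other motifs differed between the sets as well, given here as shares with no test. The TATA box TATAAA was present in 6.95% of all promoters, 5.20% of the higher and 14.01% of the lower set. The ETS site CCGGAAG was present in 13.4%, 7.89% and 4.12%, and the GC box GGGCGG in 58.6%, 59.1% and 40.9%. A match describes these letters in this window and not binding.

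At the level of single transcripts, edgeR called 22317 of 65420 transcripts (34.1%). Retained-intron transcripts were higher in 18.1% and lower in 10.6%, whereas protein-coding transcripts were higher in 19.7% and lower in 20.1%. The share of the counts of protein-coding genes that fell to retained-intron transcripts was 3.24%, 3.16%, 2.97% and 2.77% in normal and 3.34%, 3.35%, 3.37% and 3.36% in paused libraries (exact permutation p = 0.0286, 0.0571 adjusted over 18 measures).

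Use of isoforms within a gene was tested with 2 methods. edgeR's F test called 4486 of 12132 genes (37%) and limma on the log2 share of a transcript called 4542. Both called 3652, which is 81.4% of the first and 80.4% of the second set. On simulated data the F test made many false calls (53.3% of its calls) and limma few (3.36%), so genes are described here only where both called them. In the separate test of single transcripts, 1491 genes had transcripts that were called in opposite directions.

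The largest shift was in Ankfy1, an endosomal effector of Rab5 (ENSMUSG00000020790.14, chromosome 11, 72690006 to 72772146), whose gene count changed little (−0.12 ± 0.04). The protein-coding Ankfy1-206 held 96.5%, 94.5%, 93.3% and 94.7% of the gene in normal and 20.2%, 27.6%, 19.6% and 20.1% in paused libraries. Ankfy1-202, annotated as a target of nonsense-mediated decay with an end 925 bases upstream, held 0.793%, 1.53%, 3.19% and 0.797% in normal and 69.6%, 64.6%, 67.7% and 69.3% in paused libraries (adjusted p = 3.8e-37 by the F test of edgeR and 4.23e-08 by limma).

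In Gmeb1, which encodes a DNA-binding protein, the gene count was not called while isoforms with the same coding length exchanged places. Gmeb1-207 went from 45.8% ± 1.24 to 15.5% ± 2.07 and Gmeb1-203, with an end 1921 bases upstream, from 3.62% ± 1.01 to 38.2% ± 1.25. In the opposite direction, the formin gene Diaph2 gained Diaph2-202, from 4.47% ± 3.85 to 37.6% ± 1.67, and the repressor gene Zbtb20 gained Zbtb20-204, from 16.8% ± 5.08 to 49.6% ± 0.655, both with ends downstream of the transcript that lost most. Those losing transcripts, Diaph2-203 and Zbtb20-213, are of the retained-intron type. By itself Zbtb20-213 was not called (−0.25 ± 0.11, edgeR adjusted p = 0.10). Mean levels were low, from 0.08 to 1.53 TPM for Diaph2-202 and from 0.04 to 0.23 TPM for Zbtb20-204.

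**Figure D5:**
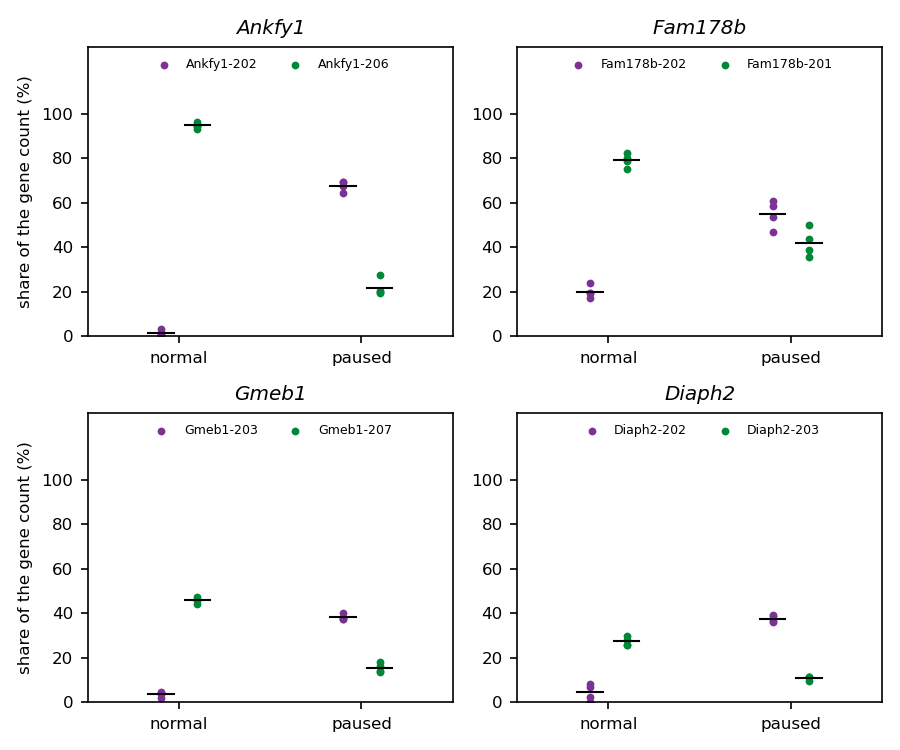
Share of the gene count (vertical axis, percent) held by the transcript that gained most (purple) and 1 that lost (green) in 4 genes, 1 point per library with group means as black lines, in 4 normal and 4 paused libraries. In Ankfy1 the transcript Ankfy1-202 goes from 1.58% to 67.8%, and no pair of groups overlaps.

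Such upstream ends were not the rule. Across the 316 genes called by both tests in which 1 transcript gained and another lost at least 10 percentage points without overlap, the ends lay at least 50 bases apart in 182. The gained end was downstream in 131 (72.0%) and upstream in 51. Among genes called by neither test the transcript with the largest nominal gain had the downstream end in 1601 of 3107 (51.5%). The gained transcript was the longer in 198 of 316 (62.7%, against 52.9%), with a median length of 3564 bases against 2515 bases for the lost one. With protein-coding transcripts alone it was the longer in 122 of 219 (55.7%, against 52.3%), and the gained end was downstream in 78 of 110 (70.9%, against 52.4%). Gained transcripts were of the nonsense-mediated decay type in 17 genes and lost ones in 5, of the retained-intron type in 25 and 36, and of the processed-transcript type in 4 and 12. In the separate KO libraries the same transcript had the higher share in paused culture in 273 of these 316 genes, with a median gain of 8.09 points against 13.99 in wild-type cells. Among genes called by neither test it did so in 2757 of 4362, with median gains of 0.40 and 1.29 points. Both the gained and the lost transcript moved the same way without overlap in KO libraries in 181 of the 316 and 581 of the 4362 genes. Estimated counts divide reads among overlapping transcripts, and poly(A) sites were not measured directly.

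The wild-type response differed from that of KO cells in many genes. The test of the difference itself called 7936 of 18944 genes (41.9%), and 22 of the 30 genes with the largest wild-type changes, which were chosen for their size in wild-type cells. Kirrel2, Sptb and Klhl13 had log2 fold changes of 1.86, 1.91 and −2.44 in wild-type and −0.08, −0.16 and 0.27 in KO cells (adjusted p of the difference 2.7e-12, 3.3e-09 and 3.3e-06). Polr2a (1.03 against −0.24), Polr3gl (1.49 against 0.10) and Cpt1a (1.42 against 0.20) also differed. Several lists had similar negative medians in wild-type and KO cells, at −0.49 and −0.50 for mitochondrial ribosomal proteins, −0.48 and −0.59 for the proteasome and −0.53 and −0.47 for CCT. The sizes lay further apart for aminoacyl-tRNA synthetases (−0.39 and −0.19), purine and pyrimidine synthesis (−0.46 and −0.71) and initiation factors (−0.31 and −0.45). Medians differed in sign for several lists, most widely for primed epiblast markers (0.39 and −0.34). Others were immediate early genes (0.12 and −0.22), SWI/SNF remodelers (0.24 and −0.03), integrins (−0.20 and 0.13) and neuroectoderm markers (−0.13 and 0.33). Cytosolic ribosomal proteins (−0.08 and 0.01) were among them too. Members that differed were 9 of 25 integrins, 1 of 6 neuroectoderm markers and 21 of 83 cytosolic ribosomal proteins, shares below that of all genes. Single members differed between the genotypes in 36 of 78 mitochondrial ribosomal proteins and 21 of 47 proteasome genes, shares near that of all genes.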

How the data were processed

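Poly(A) RNA of 16 libraries was sequenced, 8 of them described here. Per the file headers, the authors deposited estimated counts, TPM and effective lengths per transcript. Per the submitters' processing notes these came from kallisto on GRCm38, whose version is not given in the sources used here. Of 118489 transcripts 116728 matched GENCODE M21. Neither the others nor long non-coding RNAs were used here. Estimated counts were summed per gene and rounded, filtered with filterByExpr (minimum count 10), scaled by TMM and tested with the quasi-likelihood test of edgeR 4.0.16 (R 4.3.3) over all 16 libraries, 1 mean per group, 4 libraries each, two-sided, Benjamini-Hochberg adjusted over all features. The words rose, fell and changed refer to an adjusted p of 0.05. CPM use the TMM-scaled library sizes. TPM served for marker levels and as an alternative. Isoform use was tested in edgeR and with limma 3.58.1 on log2 shares, for genes with at least 2 tested transcripts. Library measures were compared by exact permutation.

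On simulated data with the real means, the gene test recovered 92% and 98% of log2 changes of 1 and −1 and 66% and 74% of changes of 0.5 and −0.5, with 4.62% false calls. Only 50 of 18616 genes were changed for each size, so a response as broad as the real one was not simulated. Transcript counts were drawn independently, without the division of reads among overlapping transcripts. The biological coefficient of variation was 0.0852 for genes and 0.332 for transcripts.

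The comparison, the gene lists and the naming rule were chosen with earlier results of these data known. Named genes are the 15 largest rises and falls at a mean log2 CPM of 3 or more with no overlap, the 10 largest gains and losses of CPM, up to 3 members per list, 12 isoform shifts, 10 steady genes and the ESC markers. Predicted gene models and pseudogenes were left out of the first, and not all are described. Gars, Ptgr1, Ifitm3 and Herpud1 were named for their promoter sites, and other list members as exceptions or examples, after values were seen. Alternatives were other scalings, DESeq2 1.42.0, no filter, a replicate block, wild-type libraries only, each library left out, and replicate pairs. The limma share test, the deciles under other settings, the promoter distance and the transcript ends were added after seeing the data. Some results are not reported here.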

Additional observations from a re-analysis of the deposited data

Results flagged for a closer look

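In 13 of 324 groups of 4 libraries 1 library lay apart from the other 3 by more than the 95% critical value of Dixon's test, and chance gives about 1 in 20. In paused culture these were Ddah2 in replicate 2 (77.97 CPM, others 82.1 to 82.3), Trib3 in replicate 1 (6.471 CPM, others 5.55 to 5.62), Mrpl18 in replicate 1 (66.07 CPM, others 61.1 to 61.6) and Rps27l in replicate 3 (84.27 CPM, others 79.1 to 79.7). In normal culture they were Polr2i in replicate 1 (49.34 CPM, others 53.4 to 54.0), Polr3g in replicate 4 (112.5 CPM, others 108.4 to 109.0) and Irs2 in replicate 2 (11.2 CPM, others 12.3 to 12.4). None of these gaps brought the groups into overlap. The number of genes with at least 1 count was low in normal replicate 4 (23394) and high in paused replicate 2 (23770), and the share of the 10 most abundant genes was high in paused replicate 2 (6.543%). Among isoform shares, Ankfy1-206 in paused replicate 2 held 27.64%, Diaph2-203 in the same library 9.705% and Gmeb1-202 in normal replicate 2 44.96%.

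The response differed between KO and wild-type cells, by the interaction term of the edgeR fit, for 22 of the 30 genes with the largest wild-type changes. As KO minus wild type on the log2 scale, the difference was −1.449 for Arhgef28, −1.192 for Ly6g6e, −0.6131 for Cpe, −1.11 for Bmf, −1.263 for Mapk4, −0.8694 for Derl3 and −0.9482 for Ddah2. It was −1.465 for Nphs1, −1.191 for Rab6b, −2.066 for Sptb, −1.059 for Megf11, −0.9503 for Snx29 and −1.943 for Kirrel2. Eif4g3 alone of the rising genes among these 22 rose more in KO cells (0.9367). Of the genes that fell, the difference was 1.576 for Ddit4, 1.871 for Mthfd2, 2.705 for Klhl13, 1.439 for Psat1, 1.886 for Trib3 and 1.222 for Calcoco2, while Ldha (−0.9623) and Tpi1 (−1.079) fell more in KO cells.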

How the results depend on the processing

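Counts of called genes, transcripts and isoform genes stayed within 1.5 times the main count except in these cases. Tested against a change of 0.5, 3514 genes passed, 2099 higher and 1415 lower. In replicates 3 and 4 alone 13735 transcripts passed, 6018 of them higher. Leaving out 1 library gave 10917 to 11329 genes, 19963 to 21367 transcripts and 3915 to 4324 isoform genes. The share of the 10 most abundant genes reversed outside pseudogenes (0.3091 points). On TPM it was −6.35 points, the pseudogene share −6.214, the retained-intron share 0.4755 and the genes holding 50% of the pool 63.25. Each passed 0.05 after adjustment, which on TPM ran over fewer measures. The exact permutation p of each was 0.0286, the same as on counts and the smallest possible. Hsp90ab1 in replicates 3 and 4 (−0.01368), Nanog in replicates 1 and 2 (0.1043), immediate early genes in replicates 3 and 4 (median −0.1246) and neuroectoderm markers in replicates 1 and 2 (median 0.1613) changed sign; the cause was not tested. Gapdh was called lower under several settings. Of the isoform genes named, Zbtb20 missed the F test threshold in replicates 3 and 4. Replicate numbers did not meet the rule for pairing, a correlation over 0.1 in every pair (same-numbered deviations −0.01, 0.21, 0.15 and 0.10), and with the replicate block 11467 genes, 20171 transcripts, 4020 isoform genes and 23 interaction genes passed. Of the medians by decile 49 moved by less than the spread between replicates and 23 by more. Depth limits genes of low CPM.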
